A study of Homo sapiens with 12 samples.

Results

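TAGAP, FAM46C and PTGER4 were among the genes with the largest early decreases after all-trans retinoic acid (ATRA) in HL-60 cells, and they were chosen by name for that decrease. They are 3 of the 58233 genes in the deposited table. HL-60, a long-established line of human acute myeloid leukaemia cells, is labelled as wt genotype, myeloid and from blood. The cells were left untreated, given 100 nM ATRA, given 500 nM palbociclib (an inhibitor of the cyclin-dependent kinases CDK4 and CDK6), or given both agents (combination). Poly(A) RNA was sequenced after 3 h, in 3 libraries per group and 12 libraries in all. All groups come from the same cell line grown in the same medium, and the labels do not say whether replicates were separate cultures, so the p-values below measure only the spread between these libraries.

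ATRA binds the retinoic acid receptors, which attach to DNA with the retinoid X receptors and change the transcription of nearby genes, and in HL-60 cells it starts differentiation towards granulocytes. The 3 genes act at different levels of the cell. PTGER4 encodes EP4, a cell surface receptor for prostaglandin E2 that couples to the stimulatory G protein and raises cyclic AMP. TAGAP encodes a GTPase-activating protein that was named for its expression in activated T cells. FAM46C, now called TENT5C, encodes a non-canonical poly(A) polymerase that lengthens the poly(A) tails of messenger RNAs and is often mutated in multiple myeloma.

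On GRCh38, TAGAP (ENSG00000164691) lies at chr6:159034468-159045152 on the minus strand, with 10 exons in its canonical transcript. FAM46C (ENSG00000183508) lies at chr1:117606048-117628389 on the plus strand and has 2 exons. PTGER4 (ENSG00000171522) lies at chr5:40679915-40693735 on the plus strand and has 3 exons. The 250 bases before the start site are shown so that the promoters of the 3 genes, which were chosen for the same direction of change, can be compared. Capitals mark every match, on either strand, to the searched motifs: the retinoid receptor half-site AGGTCA, the cyclic AMP half-site TGACG, the AP-1 motif TGANTCA, the E-box CACGTG, the C/EBP motif TTGCNNAA, the PU.1 motif GAGGAA, the TATA motif TATAAA and the GC box GGGCGG. The FAM46C window is chr1:117605798-117606047 on the plus strand and the PTGER4 window is chr5:40679665-40679914 on the plus strand, both from RefSeq. The TAGAP window, chr6:159045153-159045402 on the minus strand, was read from the genome before the outermost GENCODE start, because the RefSeq start lies 2799 bases further into the gene. Of 4 GENCODE transcripts of TAGAP, 2 start within 50 bases of that start. The canonical transcript starts 161 bases further into the gene, so the bases directly before it are not shown.
FAM46C: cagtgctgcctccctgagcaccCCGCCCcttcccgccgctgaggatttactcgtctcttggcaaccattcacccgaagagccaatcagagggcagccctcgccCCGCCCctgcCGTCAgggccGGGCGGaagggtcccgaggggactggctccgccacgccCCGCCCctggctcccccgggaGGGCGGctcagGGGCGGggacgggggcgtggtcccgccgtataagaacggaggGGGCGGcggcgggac
PTGER4: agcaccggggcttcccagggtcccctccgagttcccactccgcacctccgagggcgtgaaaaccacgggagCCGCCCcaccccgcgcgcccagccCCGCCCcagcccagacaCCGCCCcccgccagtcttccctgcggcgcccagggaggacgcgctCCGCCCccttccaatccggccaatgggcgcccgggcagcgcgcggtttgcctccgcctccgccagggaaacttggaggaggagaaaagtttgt
TAGAP: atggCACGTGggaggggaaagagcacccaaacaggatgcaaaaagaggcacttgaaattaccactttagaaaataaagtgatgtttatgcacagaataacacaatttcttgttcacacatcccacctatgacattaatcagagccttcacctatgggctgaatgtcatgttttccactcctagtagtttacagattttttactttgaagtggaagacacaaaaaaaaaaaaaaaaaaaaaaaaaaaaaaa

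The FAM46C and PTGER4 windows were rich in G and C, and the TAGAP window, which leaves out the 161 bases before the canonical start, was not. The GC content was 74.0% for FAM46C, 72.8% for PTGER4 and 34.8% for TAGAP, against a median of 58.0% over 35116 promoter windows of the same length. FAM46C had 25 CpG dinucleotides, PTGER4 had 26 and TAGAP had 1, against a median of 11. The GC box was found 7 times before FAM46C and 4 times before PTGER4, and it is held by 42.6% of all promoter windows. The FAM46C window also had 1 cyclic AMP half-site, which 21.2% of all windows hold. The TAGAP window had 1 E-box, which 6.34% of all windows hold, and it ends in a run of A. The retinoid receptor half-site, present in 12.1% of all windows, had no match in the 3 windows, and the AP-1 (6.57%), C/EBP (9.05%), PU.1 (23.6%) and TATA (10.7%) motifs had none either. A match describes letters only and does not show a binding site.

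The libraries had the profile of myeloid cells. MPO, which encodes myeloperoxidase, was at 1077 to 1579 RPKM (read counts scaled to the length of the gene and the size of the library, here in whole steps of 1), and the summed level of 8 myeloid markers was 1601 to 1829 RPKM in untreated cells, 1514 to 1700 with ATRA, 1776 to 1998 with palbociclib and 1540 to 1780 with the combination. MPO made up most of each sum, and the markers did not all move with it. Of 7 tested markers, 3 had a log2 FC below 0 for ATRA minus untreated, and the median was 0.31. The mean of MPO went from 1346 RPKM untreated to 1133 with ATRA, and that of CEBPA from 34.7 to 52.7. The neutrophil elastase gene ELANE was at only 0 to 1 RPKM. Of 8 T cell markers, 7 were listed at 0 in every library and TRAC was at 2 to 5 RPKM. Of 6 B cell markers, 5 were listed at 0 in every library and CD79A was at 0 without ATRA and 1 with it. Of the retinoid controls, DHRS3, a retinaldehyde reductase gene, was at 0 to 1 RPKM without ATRA and 40 to 50 RPKM with it, and HIC1, a transcriptional repressor gene, was listed at 0 without ATRA and at 8 to 12 RPKM with it. CYP26A1, RARB and TGM2 were listed at 0 in all 12 libraries. The part of the shifts in these marker sums in the results below was not tested. In bulk RNA, fewer cells that express a gene and less RNA per cell cannot be told apart.

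All 3 genes were expressed at low to moderate levels without ATRA and close to the rounding step of 1 RPKM with it. TAGAP was at 10, 13 and 13 RPKM in the untreated replicates and at 3, 3 and 4 RPKM with ATRA. With palbociclib it was at 11, 13 and 14 RPKM, and with the combination at 3, 3 and 4 RPKM. Each library with ATRA lay below each library without it, while untreated and palbociclib libraries overlapped, as did those with ATRA and the combination. Choosing the genes by their decrease with ATRA favours such a separation. Of 7820 genes with at least 5 RPKM in at least 3 libraries, 17.3% had all ATRA libraries below all untreated ones. For the combination against palbociclib the share was 9.86%. The share for all libraries with ATRA against all without it was not computed. The means were 12 ± 1.73 RPKM (SD, n = 3) untreated, 3.33 ± 0.577 with ATRA, 12.7 ± 1.53 with palbociclib and 3.33 ± 0.577 with the combination.

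FAM46C was at 9, 9 and 10 RPKM in untreated cells and at 2, 1 and 2 RPKM with ATRA. Palbociclib libraries had 9, 10 and 11 RPKM, and combination libraries had 2, 1 and 2 RPKM. As for TAGAP, the levels with and without ATRA did not overlap, a separation that the choice of the genes favours. The means were 9.33 ± 0.577 RPKM (SD, n = 3), 1.67 ± 0.577 with ATRA, 10.0 ± 1.0 with palbociclib and 1.67 ± 0.577 with the combination. In the ATRA and the combination group alike, replicate 2 was the lowest, at 1 RPKM.

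PTGER4 was at 6, 6 and 6 RPKM in untreated cells and at 1, 1 and 2 RPKM with ATRA. Palbociclib libraries had 6, 6 and 7 RPKM, and combination libraries had 1, 1 and 1 RPKM. The means were 6.0 RPKM untreated with no spread at this rounding, 1.33 ± 0.577 (SD, n = 3) with ATRA, 6.33 ± 0.577 with palbociclib and 1.0 with the combination, again with no spread. By its mean per length, PTGER4 was the lowest of the 3 genes in every group and TAGAP the highest, although with ATRA and with the combination the libraries of PTGER4 and FAM46C shared values. For each gene the palbociclib mean was the highest and the untreated mean the next, with ATRA and the combination below both, but the neighbours at the top and at the bottom of that order did not differ beyond their spread.

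**Figure D1:**
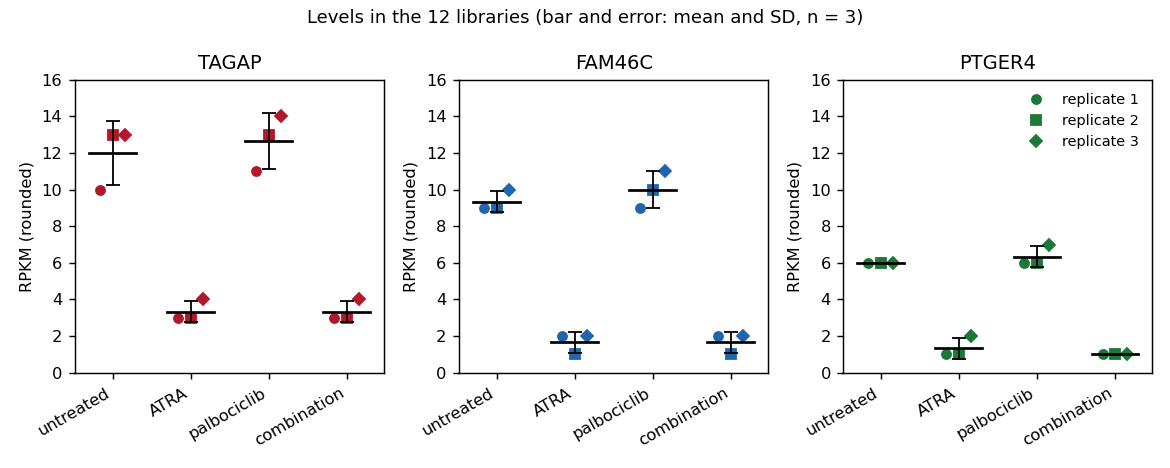
Rounded RPKM (vertical axis) of TAGAP, FAM46C and PTGER4 in the 4 groups, with 1 symbol per replicate, a bar for the mean and an error bar for the SD (n = 3). The 6 libraries with ATRA lie between 1 and 4 RPKM and the 6 libraries without ATRA between 6 and 14 RPKM.

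The decrease with ATRA alone chose these genes and is therefore given as a description. ATRA minus untreated was -1.82 (SE 0.16) for TAGAP, -2.48 (SE 0.29) for FAM46C and -2.16 (SE 0.22) for PTGER4, as log2 fold changes (log2 FC) of RPKM + 0.1. The ATRA mean was 27.8% of the untreated mean for TAGAP (23.1% to 30.8% over same-numbered replicates), 17.9% for FAM46C (11.1% to 22.2%) and 22.2% for PTGER4 (16.7% to 33.3%). Because each value was rounded to a step of 1 RPKM, the ratio of the unrounded means could lie anywhere from 22.7% to 33.3% for TAGAP, 11.9% to 24.5% for FAM46C and 12.8% to 33.3% for PTGER4. Of 7820 genes with at least 5 RPKM in at least 3 libraries, 1.94% were called lower with ATRA at an adjusted p under 0.001, and 17.3% had all ATRA libraries below all untreated ones. All 3 genes passed that filter only through the libraries without ATRA.

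Among the 152 genes called lower with ATRA, FAM46C stood 2nd, PTGER4 3rd and TAGAP 4th by log2 FC. The gene just above them was SERPINB2, which encodes plasminogen activator inhibitor 2, at -3.17. It was at 8, 9 and 13 RPKM untreated and at 1 RPKM in every ATRA library. The gene just below was FOSL2, which encodes an AP-1 subunit, at -1.62. It was at 7, 10 and 8 RPKM untreated and 2, 3 and 3 RPKM with ATRA. The 3 genes lay between a gene with a larger change and a gradual series of smaller ones. Their ranks restate the decrease by which they were chosen.

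The question whether ATRA also lowered these genes in cells given palbociclib was addressed by comparing the combination with palbociclib, which shares no library with ATRA minus untreated. The spread behind its SE and p-values was estimated over all 12 libraries, so it also drew on the untreated and ATRA libraries. The genes were named with earlier results of these data known, and whether the combination libraries, which also held ATRA, played a part in the choice is not known. TAGAP fell by 1.90 on the log2 scale (SE 0.16, 95% CI -2.26 to -1.54, limma adjusted p = 2.33e-05), a 3.73-fold lower level. PTGER4 fell by 2.54 (SE 0.22, 95% CI -3.03 to -2.06, limma adjusted p = 2.34e-05), a 5.83-fold lower level. FAM46C fell by 2.57 (SE 0.29, 95% CI -3.20 to -1.94, limma adjusted p = 0.000165), a 5.95-fold lower level. In each case 3 of 3 combination libraries lay below 3 of 3 palbociclib libraries. Over all 7820 tested genes, 0.997% were called lower in this comparison and 9.86% had combination libraries all below the palbociclib libraries. With the replicate number as a block, 201 genes instead of 78 were called lower, and the call of each of the 3 genes stood. Each had passed the filter only through libraries without ATRA. Each was also called over the 15220 genes with at least 1 RPKM in at least 1 library, FAM46C with a limma adjusted p of 0.000862.

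Some calls depended on the fit. The FAM46C call was lost without palbociclib replicate 1 (limma adjusted p = 0.00105), replicate 2 (adjusted p = 0.00141) or replicate 3 (adjusted p = 0.0017), and with quantile normalization (log2 FC -3.33, adjusted p = 0.00207). When the fit held only the 6 combination and palbociclib libraries, 1 of 7820 genes was called lower. It was PTGER4 (limma adjusted p = 0.000634), whose combination libraries had no spread at this rounding, and TAGAP (0.00378) and FAM46C (0.00968) missed the threshold with the same log2 FC as before. Quantile normalization moved PTGER4 to -4.12. Same-numbered treated libraries deviated together from their group means (correlation across genes 0.782 to 0.907 between ATRA and combination), so these libraries are separate from those of the first comparison but not unrelated to them.

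The remaining level in the combination was 26.3% of palbociclib for TAGAP (23.1% to 28.6% over same-numbered replicates), 16.7% for FAM46C (10.0% to 22.2%) and 15.8% for PTGER4 (14.3% to 16.7%). Rounding alone would allow 21.5% to 31.5% for TAGAP, 11.1% to 22.8% for FAM46C and 7.32% to 25.7% for PTGER4. These ranges overlapped for each pair of the 3 genes, so no order of the 3 can be read from the remaining share. By log2 FC among the 78 genes called lower, SERPINB2 (-3.27) was followed by FAM46C, PTGER4, TAGAP and FOSL2 (-1.72).

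**Figure D2:**
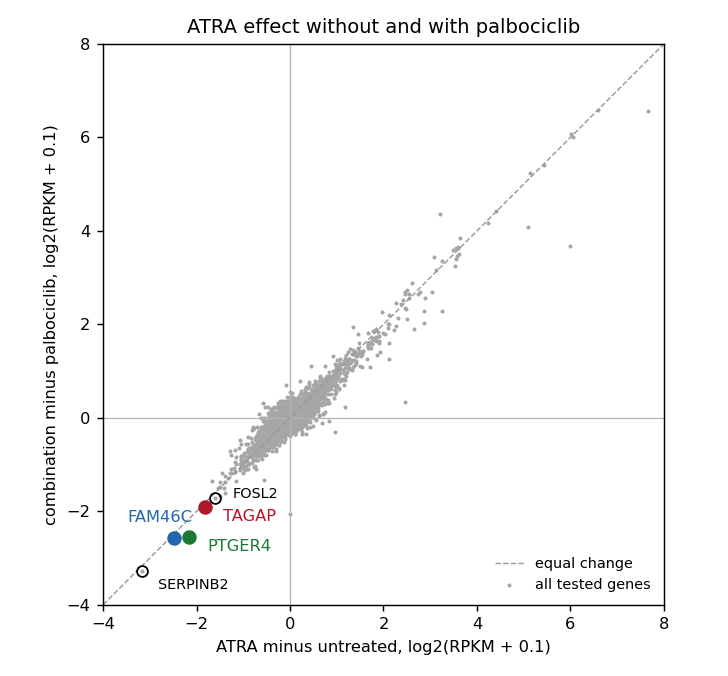
Each point is 1 of 7820 tested genes. The horizontal axis gives the log2 FC of ATRA against untreated. The vertical axis gives that of the combination against palbociclib, both of RPKM + 0.1. Genes beyond the axis limits, such as FGR at 8.46 for ATRA against untreated, are not shown. The dashed line marks equal change. TAGAP, FAM46C and PTGER4 (coloured) lie near that line between SERPINB2 (-3.17 and -3.27) and FOSL2 (-1.62 and -1.72).

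Palbociclib itself had no detectable effect on the 3 genes. Its average effect over cells with and without ATRA, a contrast orthogonal to ATRA minus untreated, was 0.04 for TAGAP (SE 0.11, 95% CI -0.21 to 0.29, limma adjusted p = 0.908). It was 0.05 for FAM46C (SE 0.20, 95% CI -0.40 to 0.49, limma adjusted p = 0.943). For PTGER4 it was -0.12 (SE 0.15, 95% CI -0.46 to 0.22, limma adjusted p = 0.795). The intervals leave room for changes of up to about these bounds in either direction. Over all tested genes, 0.563% were called lower and 0.0128% higher for this contrast.

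The other comparisons share libraries with the one that chose the genes and are given as values. Palbociclib minus untreated was 0.08 (SE 0.16) for TAGAP, 0.10 (SE 0.29) for FAM46C and 0.07 (SE 0.22) for PTGER4 on the log2 scale. The combination minus untreated was -1.82 (SE 0.16), -2.48 (SE 0.29) and -2.47 (SE 0.22) in the same order. The combination and ATRA libraries had the same rounded values for TAGAP and FAM46C, and the 95% CI of their difference was -0.36 to 0.36 for TAGAP and -0.63 to 0.63 for FAM46C. PTGER4 differed by -0.31 (SE 0.22, 95% CI -0.79 to 0.17), which comes from 1 ATRA library at 2 RPKM where the other ATRA and all combination libraries were at 1 RPKM. The departure from additivity was the palbociclib effect with ATRA minus that without it. It was -0.08 (SE 0.23) for TAGAP, -0.10 (SE 0.40) for FAM46C and -0.38 (SE 0.31) for PTGER4. These values carry no test, and their standard errors leave room for departures in either direction.

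No other tested gene of the pathway around PTGER4 was called between combination and palbociclib. As the base for the list counts here, 13.5% of all tested genes were lower and 10.3% higher in this comparison at an unadjusted p under 0.05. Of the 8 other prostanoid receptor genes, 7 were listed at 0 in every library. PTGER2, which encodes EP2, the other receptor for prostaglandin E2 that raises cyclic AMP, was at 21, 17 and 21 RPKM untreated, 16, 15 and 15 with ATRA, 16, 16 and 17 with palbociclib and 15, 13 and 14 with the combination. Its log2 FC between combination and palbociclib was -0.22 (SE 0.09, limma adjusted p = 0.139), which did not pass the threshold. Per length, PTGER2 was above PTGER4 in every library.

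Of 14 genes of prostanoid synthesis and turnover, 4 were tested and 0 were called by limma, with 2 lower and 0 higher at an unadjusted p under 0.05. Their median log2 FC was -0.19 against 0.0 over all tested genes. PTGES3, a co-chaperone with prostaglandin E synthase activity, was at 177 to 238 RPKM, and PTGES2, a membrane-associated synthase, at 21 to 29 RPKM. The 2 inducible genes were too low to be tested. PTGS2, which encodes cyclooxygenase-2, was at 1 RPKM in each library without ATRA and listed at 0 in each library with it. PTGES, the inducible synthase gene, was listed at 0 without ATRA, at 1, 2 and 4 RPKM with ATRA and at 1, 3 and 4 RPKM with the combination. With the filter at 1 RPKM instead of 5, PTGS2 was called lower and PTGES higher, from values at the rounding step.

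Of 23 genes of the cyclic AMP pathway, 10 were tested and 0 were called by limma, with 0 lower and 2 higher at an unadjusted p under 0.05 and a median of 0.02. GNAS, which encodes the stimulatory G protein subunit to which EP4 couples, was at 24 to 27 RPKM with a log2 FC of 0.02 (SE 0.05). CRTC2, a coactivator of the cyclic AMP-responsive factor CREB, was at 28, 28 and 26 RPKM with palbociclib and 34, 36 and 35 RPKM with the combination. Its log2 FC was 0.36 (SE 0.07, limma adjusted p = 0.00498), which missed the threshold, and it passed with the replicate block (limma adjusted p = 0.000962). Untreated libraries had 25, 26 and 22 RPKM of CRTC2 and ATRA libraries 33, 35 and 33. For ATRA minus untreated its log2 FC was 0.47 (SE 0.07, limma adjusted p = 0.000656). CRTC2 was the only gene of this list called in that comparison, in which 217 of 7820 tested genes were called higher.

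Among the relatives of FAM46C, FAM46A was the only other expressed member of its family. FAM46A was at 8, 6 and 7 RPKM untreated and 3, 3 and 4 with ATRA, and at 5, 4 and 7 RPKM with palbociclib and 3, 2 and 4 with the combination. The palbociclib and combination groups of FAM46A overlapped. The log2 FC was -0.83 (SE 0.26, limma adjusted p = 0.0626), and with the replicate block the adjusted p was 0.00537 by limma, so FAM46A was not called in either fit. FAM46B and FAM46D were listed at 0 in every library. Of 13 nucleotidyltransferase genes that extend RNA 3′ ends, 7 were tested and 0 were called by limma, with 2 lower and 1 higher at an unadjusted p under 0.05 and a median of 0.0. PAPOLA, the canonical nuclear poly(A) polymerase gene, was at 25 to 32 RPKM with a log2 FC of 0.02 (SE 0.08), and PAPD4, which encodes a cytoplasmic poly(A) polymerase, was at 9 to 10 RPKM with 0.05 (SE 0.07).

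Of 20 deadenylase and poly(A)-binding protein genes, 17 were tested, and limma called 1 higher and 0 lower, with 3 higher and 0 lower at an unadjusted p under 0.05 and a median of 0.05. The gene called was BTG2, an antiproliferative protein that recruits deadenylases. BTG2 was at 5, 6 and 7 RPKM with palbociclib and 16, 20 and 19 RPKM with the combination, and at 5, 4 and 5 RPKM untreated and 14, 17 and 15 RPKM with ATRA. It rose by 1.60 on the log2 scale (SE 0.14, limma adjusted p = 2.66e-05). PABPC1, the main cytoplasmic poly(A)-binding protein gene, was at 360 to 415 RPKM with a log2 FC of 0.02 (SE 0.06), and CNOT1, the scaffold of the CCR4-NOT deadenylase, was at 32 to 53 RPKM with 0.02 (SE 0.23). Over all tested genes, 2.11% were called higher in this comparison. At an adjusted p under 0.05, 1 gene of the lists was lower, PLA2G4A, a phospholipase that releases arachidonic acid, at -0.35 (SE 0.08). When the fit held only the libraries of this comparison, BTG2 was not called.

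**Figure D3:**
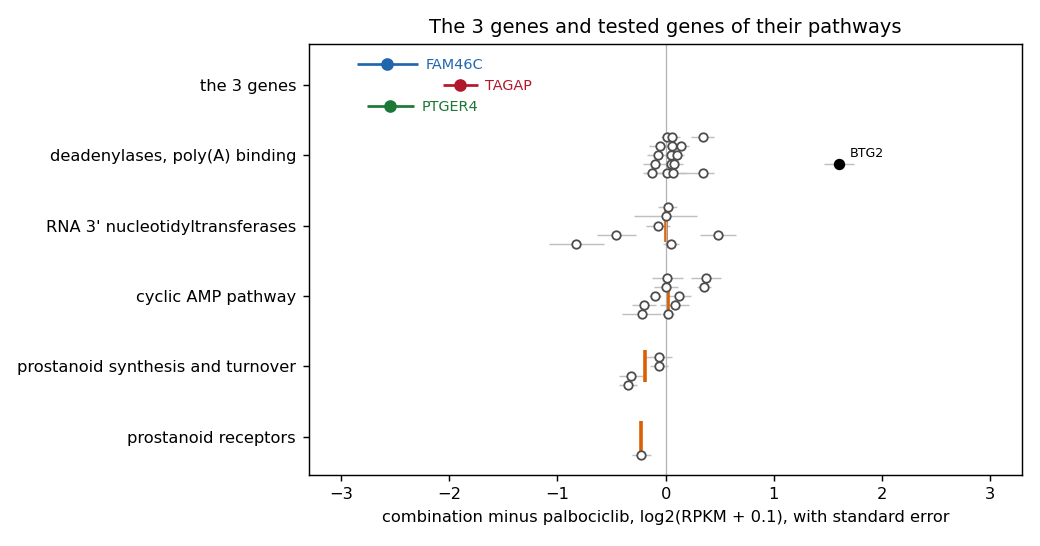
Log2 FC of RPKM + 0.1 between combination and palbociclib (horizontal axis, with standard error) for TAGAP, FAM46C and PTGER4 (coloured) and for the tested genes of 5 pathway lists, with filled points for genes called at an adjusted p under 0.001 and an orange bar at each list's median. The list medians lie between -0.22 and 0.05, and the called list gene, BTG2, is above 0.

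The genes with patterns most like the members were found by Pearson's r of log2(RPKM + 0.1) over the 12 libraries. For each member these libraries form 2 clusters, with and without ATRA, so r describes a shared step between the clusters and carries no test. The genes most like TAGAP were TLR2 (r = 0.993), NRROS (r = 0.991), DUSP3 (r = 0.985), SERPINB2 (r = 0.984) and MYC (r = 0.983). TLR2, a receptor for bacterial lipoproteins, was at 10, 11 and 11 RPKM untreated, 5, 5 and 6 with ATRA, 9, 10 and 11 with palbociclib and 5, 5 and 6 with the combination. MYC, a transcription factor of cell growth, was at 171, 174 and 203 RPKM with palbociclib and 72, 70 and 107 with the combination, with a log2 FC of -1.16 (SE 0.18). Its limma adjusted p was 0.00142, which missed the threshold, and 2.88e-05 with the replicate block, which passed.

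The genes most like FAM46C were DLX1 (r = 0.992), HK2 (r = 0.990), NRROS (r = 0.986), WDR3 (r = 0.986) and MYBBP1A (r = 0.984). DLX1, a homeobox transcription factor gene, was at 9, 8 and 10 RPKM with palbociclib and 4, 3 and 4 with the combination. HK2, which encodes a hexokinase, was at 29, 32 and 38 RPKM with palbociclib and 16, 12 and 17 with the combination. DLX1, HK2 and FAM46C shared the low value of replicate 2 in the ATRA and combination groups.

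The genes most like PTGER4 were TBC1D2B (r = 0.988), TAGAP (r = 0.982), ERLIN1 (r = 0.981), CRYZ (r = 0.978) and STX3 (r = 0.978). CRYZ and STX3 were both at 7 RPKM in each library without ATRA and 6 in each with it, so a high r can rest on a single rounding step. FAM46C was 24th among the genes most like PTGER4 (r = 0.965) and 21st among those most like TAGAP (r = 0.974). Among the 5 genes most like each member, the sizes of change between combination and palbociclib ranged from -0.22 for CRYZ and STX3 to -3.27 for SERPINB2. Apart from SERPINB2 each was smaller than that of its member. The members were chosen for large decreases with ATRA, so that order was largely set by the choice.

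**Figure D4:**
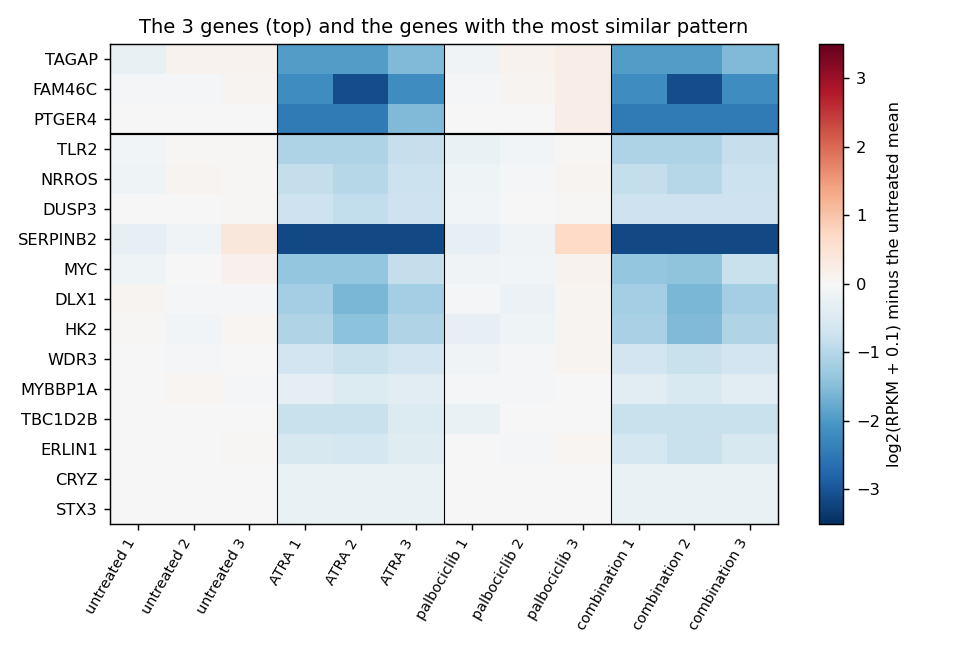
Log2(RPKM + 0.1) minus the mean of the untreated libraries (colour, blue lower and red higher) in the 12 libraries (columns) for TAGAP, FAM46C and PTGER4 (top rows) and the genes with the highest Pearson r to them (lower rows). The step between libraries with and without ATRA is shared by all rows, while its size runs from -0.22 for CRYZ and STX3 to -3.27 for SERPINB2 between combination and palbociclib.

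The neighbours of the 3 genes on the chromosome were examined because position was not used to choose them. The nearest tested protein-coding genes on each side were EZR and WTAP for TAGAP, MAN1A2 and WDR3 for FAM46C, and RICTOR and PRKAA1 for PTGER4. Of these 6 genes, only WDR3 was called between combination and palbociclib. Over all tested genes, 0.997% were called lower and 2.11% higher in that comparison. WDR3, a ribosome biogenesis factor gene 301 kb from FAM46C, was at 19, 20 and 22 RPKM with palbociclib and 13, 12 and 13 with the combination, and it fell by 0.68 on the log2 scale (SE 0.07, limma adjusted p = 7.43e-05). It was also the 4th gene in the order of likeness to FAM46C. The nearer neighbour MAN1A2, a Golgi mannosidase gene 77.2 kb away on the other side, had the same rounded values of 3, 4 and 5 RPKM in both groups.

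EZR, which encodes ezrin, a linker of membrane and actin, lies 215 kb from TAGAP. It was at 31, 30 and 35 RPKM with palbociclib and 28, 25 and 28 RPKM with the combination, a log2 FC of -0.24 (SE 0.08, limma adjusted p = 0.0604). PRKAA1, an AMP-activated kinase subunit gene 65.7 kb from PTGER4, had a log2 FC of -0.17 (SE 0.16, limma adjusted p = 0.604). WTAP, 680 kb from TAGAP, and RICTOR, 1606 kb from PTGER4, had the same rounded values in both groups. From untreated to ATRA alone, EZR went from 40, 39 and 41 RPKM to 30, 28 and 32 (log2 FC -0.42, SE 0.08, limma adjusted p = 0.00288). PRKAA1 went from 19, 18 and 18 RPKM to 12, 14 and 15 (log2 FC -0.43, SE 0.16, limma adjusted p = 0.0786). Among the neighbours, only WDR3 was called for ATRA minus untreated, where 1.94% of all tested genes were called lower.

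Genes that overlap a member could share its reads. PTGER4 lies within the span of TTC33 on the opposite strand, with no exonic base in common, and TTC33 was at 2 to 3 RPKM in all libraries. The antisense gene TAGAP-AS1 covers 15.6% of the exonic bases of TAGAP, and a long non-coding RNA gene on the same strand, ENSG00000226032, covers 7.36%. Both were listed at 0 in all 12 libraries. FAM46C overlaps no other gene of the annotation used. The default settings of htseq-count, which the authors used, count by strand, but the sources used here do not say whether the library kit kept strand. The reads from the shared bases of TAGAP are therefore uncertain.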

How the data were processed

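The authors prepared poly(A) TruSeq libraries of HL-60 cells, aligned reads to hg38 with HISAT2, counted them with htseq-count in default settings and deposited RPKM rounded to whole numbers, used here as a score with a step of 1; versions and annotation are not given in the sources used here. Counts were not analysed here and the study's methods give only an average number of reads, so the depth of each library is unknown; library sums were 358455 to 390247 RPKM. Groups and replicate numbers came from the labels. The members and lists were chosen with earlier results of these data known.

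Genes with at least 5 RPKM in at least 3 libraries (7820 of 58233) were tested with limma 3.58.1 (R 4.3.3) on log2(RPKM + 0.1), with 1 mean per group over 12 libraries, eBayes with trend, Benjamini-Hochberg adjustment over all tested genes and calls at an adjusted p under 0.001. For low genes this scale understates changes between values above 0, and changes from or to 0 are set by the pseudocount. The script was tested on simulated data. Named genes were the members, the 5 most like each, called list genes, the 2 highest of each list, tested neighbours, the genes next to the members by ATRA effect and retinoid controls; others were chosen after their values were seen. All 105 list entries matched; further pathway lists are not reported here. Coordinates are from GENCODE v44 on GRCh38.

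Same-numbered libraries deviated together between palbociclib and combination (correlations 0.438 to 0.702), ATRA and combination (0.782 to 0.907) and ATRA and palbociclib (0.497 to 0.751), so the numbers pair the treated libraries; with untreated libraries they were 0.0453 to 0.367. Alternatives changed the pseudocount, filter, scaling, variance trend, replicate block and libraries fitted.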

Additional observations from a re-analysis of the deposited data

How the results depend on the processing

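Rounding to 1 RPKM limits every value of the 3 genes with ATRA, which are 1 to 4 steps high, and 3 libraries per group limit the tests. Adjusted p-values by limma for combination against palbociclib ranged over the alternatives from 2.99e-06 to 0.00378 for TAGAP, 3.29e-05 to 0.00968 for FAM46C and 9.93e-07 to 0.000634 for PTGER4. With only the libraries compared, log2 FC were unchanged at -1.90 for TAGAP and -2.57 for FAM46C, neither was called, and calls fell to 1 gene lower (PTGER4), 20 higher and 0 pathway list genes higher instead of 1 (BTG2). Quantile normalization gave -3.33 for FAM46C without a call, and for ATRA against untreated -3.63 for FAM46C and -3.71 for PTGER4. A pseudocount of 1 gave -1.58, -1.98 and -1.61 for TAGAP, FAM46C and PTGER4 with ATRA alone. The cause was not tested. The replicate block gave 201 genes lower and 280 higher instead of 78 and 165, and changed no call of the 3 genes. An adjusted p under 0.05 gave 519 lower and 458 higher. The filter at 1 RPKM in at least 3 libraries gave 139 lower, and that at 1 RPKM in at least 1 library gave 135. In each case 1 list gene was lower (PTGS2) and 2 were higher (BTG2 and PTGES). An adjusted p under 0.05 gave 1 list gene lower (PLA2G4A) and 2 higher (BTG2 and CRTC2), and the replicate block 2 higher (BTG2 and CRTC2).

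Leaving out each library in turn gave -2.03 to -1.83 for TAGAP, -2.73 to -2.26 for FAM46C and -2.58 to -2.47 for PTGER4 (combination against palbociclib), with FAM46C not called without any 1 of the palbociclib replicates. For ATRA against untreated the ranges were -1.95 to -1.75, -2.63 to -2.17 and -2.47 to -2.00. The palbociclib average changed sign, at -0.027 to 0.11 for TAGAP, -0.11 to 0.20 for FAM46C and -0.20 to 0.037 for PTGER4. That average uses all 12 libraries, so no fit of only the libraries compared exists for it. Genes called lower numbered 29 to 75, with fewer than 52 without untreated replicate 3 (51), palbociclib replicate 2 (29) or 3 (30), or combination replicate 2 (29) or 3 (37). Genes called higher numbered 87 to 165, falling to 105, 93 and 102 without palbociclib replicates 1, 2 and 3 and to 87 and 90 without combination replicates 2 and 3. List genes called higher numbered 1 to 1 and lower 0 to 0.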
